A study of Rattus norvegicus with 12 samples.

Results

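The genes described here encode the neurofilament subunits of sensory neurons: Nefl (light chain, ENSRNOG00000013658), Nefm (medium chain, ENSRNOG00000013916) and Nefh (heavy chain, ENSRNOG00000008716). They were taken by their Ensembl identifiers, and all 3 were found among the 32662 identifiers of the deposited count tables and passed the filter on low counts. The libraries were made from poly(A)-selected RNA of trigeminal ganglia (TG), which innervate the face and head, and of dorsal root ganglia (DRG), which innervate the trunk and limbs. The 6 rats were naive male Wistar Han animals aged 10 weeks, killed 2 weeks after arrival under pentobarbital with lidocaine and perfused with cold saline, and they were kept on a reversed light cycle. Each rat gave 1 TG and 1 DRG library, so there were 6 libraries of each tissue, which differed in the ganglion only. The labels do not give the spinal levels of the DRG or the number of ganglia behind a library.

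Neurofilaments are the intermediate filaments of mature neurons. The light chain forms the core of the filament, and the medium and heavy chains join it through their rod domains and carry long, heavily phosphorylated tails that project from the filament and are associated with the spacing of filaments and the calibre of axons. In sensory ganglia the subunits are most abundant in large neurons with thick myelinated axons, and antibodies to the heavy chain are a customary marker of such cells, while small unmyelinated nociceptors hold less of them. The comparison of TG with DRG therefore asks whether the balance of subunit transcripts differs between ganglia that serve different body regions. In bulk libraries a change in the number or size of such neurons and a change in RNA per neuron cannot be told apart.

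Libraries held 11876597 to 15144027 counts in genes in TG and 13336016 to 17184211 in DRG. Some libraries stood apart for other genes: the DRG library of rat R103 exceeded the other DRG libraries by over 4-fold in 30 genes, and the TG libraries of rats R104 and R105 exceeded those of TG in 16 and 7 genes, but none (0) of these was a neurofilament gene. Reads outside annotated genes made up 20.5% to 21.0% of the reads in TG files and 15.7% to 16.9% in DRG files. Library size was also counted over all reads in the file, without TMM scaling factors. The log2 fold change of TG over DRG was then 0.25 for Nefm, 0.080 for Nefh and 0.064 for Nefl. With counts in genes it was, in the same order, 0.33, 0.15 and 0.14 without these factors. With them it was 0.29, 0.11 and 0.099. The identifiers of other genes could not be paired with symbols from the sources used here, so markers of neuron classes, glia and other cells, and the other cytoskeletal genes, were not analysed here, and the labelled tissues were not checked against markers.

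Neurofilament transcripts were among the most abundant in both ganglia. The 3 genes together took 2.08% ± 0.10 of the counts in genes in TG (SD, n = 6) and 1.77% ± 0.093 in DRG. The share ran from 1.94% to 2.22% over the TG libraries and from 1.65% to 1.89% over the DRG libraries, and was higher in TG in 6 of 6 rats. Nefm was the 3rd or 4th most abundant gene of every library by CPM (read counts scaled to library size with TMM factors). Nefl held ranks 6 to 9 in both tissues. Nefh held ranks 13 to 15 in TG and 12 to 13 in DRG. These ranks are of reads, not of molecules, since counts were not divided by transcript length.

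Nefm was higher in TG in every rat. Nefh and Nefl were slightly higher, to a similar extent (log2 fold change 0.11 ± 0.041 and 0.099 ± 0.042, SE). Only Nefh was called, as the 2 fell on either side of the threshold (edgeR, adjusted p = 0.024 and 0.054). Of the difference in mean CPM summed over the 3 genes, 72.2% lay in Nefm, 16.1% in Nefl and 11.7% in Nefh. These parts grow with the level of a gene as well as with its fold change. In DRG, Nefm already held 47.1% of the counts of the 3 genes, Nefl 32.6% and Nefh 20.3%.

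Nefm, whose product is the medium chain with a long phosphorylated tail, was at 9573 CPM in the lowest TG library, 10275 CPM at the median and 11327 CPM in the highest. In DRG it was at 7967 CPM in the lowest library, 8473 CPM at the median and 9227 CPM in the highest. All 6 TG libraries lay above all 6 DRG libraries. The means were 10332 ± 618 CPM for TG and 8468 ± 473 CPM for DRG (SD, n = 6), a fold change of 1.22 with a 95% interval of 1.14 to 1.30. On the log2 scale this was 0.29 ± 0.044 (SE; edgeR's quasi-likelihood test, adjusted p = 3.8e-05). Within rats the log2 difference ran from 0.21 in R102 to 0.40 in R106.

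Nefh, whose product is the heavy chain with the longest tail of the 3, was at 3643 CPM in the lowest TG library, 3994 CPM at the median and 4216 CPM in the highest. In DRG it was at 3434 CPM, 3657 CPM and 3854 CPM. The groups overlapped, with 4 of 6 TG libraries above all DRG libraries. The means were 3940 ± 235 CPM for TG and 3638 ± 155 CPM for DRG (SD, n = 6), a fold change of 1.08 with a 95% interval of 1.02 to 1.15. The log2 fold change was 0.11 ± 0.041 (SE; edgeR, adjusted p = 0.024), higher in TG in 5 of 6 rats and at -0.013 in R102. This call was lost when library size was counted over all reads in the file without TMM factors (log2 fold change 0.080, edgeR, adjusted p = 0.10). With counts in genes and no TMM factors the call held (log2 fold change 0.15, edgeR, adjusted p = 0.0031). The Nefh call was also lost without rat R101, R105 or R106 (edgeR, adjusted p = 0.053, 0.058 and 0.096). Those fits did not use the pairing of libraries by rat. With the rat as a block and all rats kept, Nefh passed with a smaller SE (log2 fold change 0.11 ± 0.031, edgeR, adjusted p = 0.0056).

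Nefl, whose product is the core subunit on which the others assemble, was at 5823 CPM in the lowest TG library, 6306 CPM at the median and 6591 CPM in the highest. In DRG it was at 5330 CPM, 5895 CPM and 6260 CPM. The groups overlapped, with 3 of 6 TG libraries above all DRG libraries. The means were 6272 ± 301 CPM for TG and 5857 ± 336 CPM for DRG (SD, n = 6), a fold change of 1.07 with a 95% interval of 1.01 to 1.14. The log2 fold change of 0.099 ± 0.042 (SE) did not pass (edgeR, unadjusted p = 0.031, adjusted p = 0.054). It was positive in 5 of 6 rats, from -0.023 in R101 to 0.31 in R106. With the rat as a block, which the pairing of libraries by animal allows, Nefl passed by a small margin (log2 fold change 0.099, edgeR, adjusted p = 0.048). Without rat R106 the log2 fold change was 0.059 (edgeR, adjusted p = 0.22).

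**Figure D1:**
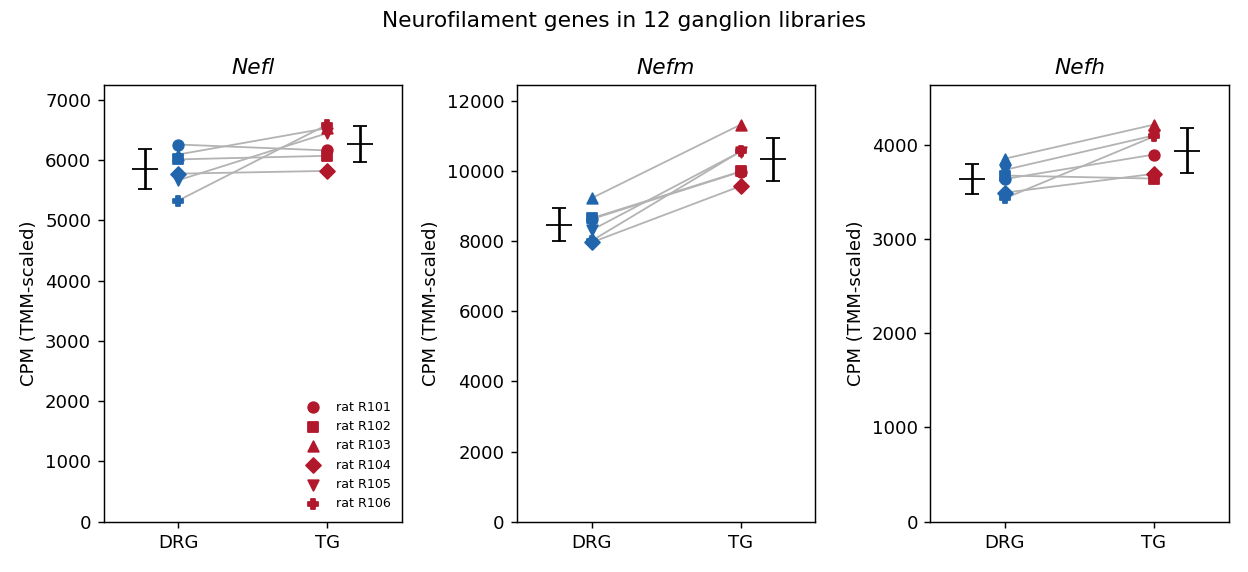
CPM (vertical axis, from 0) of Nefl, Nefm and Nefh in the DRG and TG library of each of 6 rats, joined by a grey line, with the mean and SD of each tissue in black. The Nefm points of TG (9573 to 11327 CPM) lie above all those of DRG (7967 to 9227 CPM), while the points of Nefl and Nefh overlap between the tissues.

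The number of neurofilament genes called has to be read against how many genes of the whole table differed. Of the 3 genes, 2 were called higher in TG, where 29.9% of all 14554 tested genes were called higher and 57.3% were called in either direction. Among the 88 genes with a mean over 1000 CPM, the level at which neurofilament transcripts lie, 30.7% were called higher in TG and 81.8% in either direction. Of the 14 genes over 3000 CPM, the 3 neurofilament genes included, 71.4% were called higher in TG. Separate groups of libraries, as for Nefm, were seen in 36.2% of all tested genes and in 64.8% of the 88 genes over 1000 CPM.

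Regardless of direction, the median absolute log2 fold change was 0.23 for all tested genes and 0.21 for the 88 genes over 1000 CPM. It was 0.19 for the 14 genes over 3000 CPM, and all these sets include the 3 neurofilament genes. Nefh (0.11) and Nefl (0.099) lay below these medians, and Nefm (0.29) lay above them. The median of the 3 neurofilament genes, 0.11, is the value of Nefh. The median signed log2 fold change was 0.11 for the 3 neurofilament genes, 0.0090 for all tested genes, -0.095 for the 88 genes over 1000 CPM and 0.17 for the 14 genes over 3000 CPM. The log2 fold change of Nefm exceeded that of 77.8% of all tested genes and was surpassed by 8 of the 88 genes over 1000 CPM. Over 3000 CPM only 1 gene was raised more in TG than Nefm. Nefh and Nefl stood at 63.2% and 61.2% of all tested genes.

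**Figure D2:**
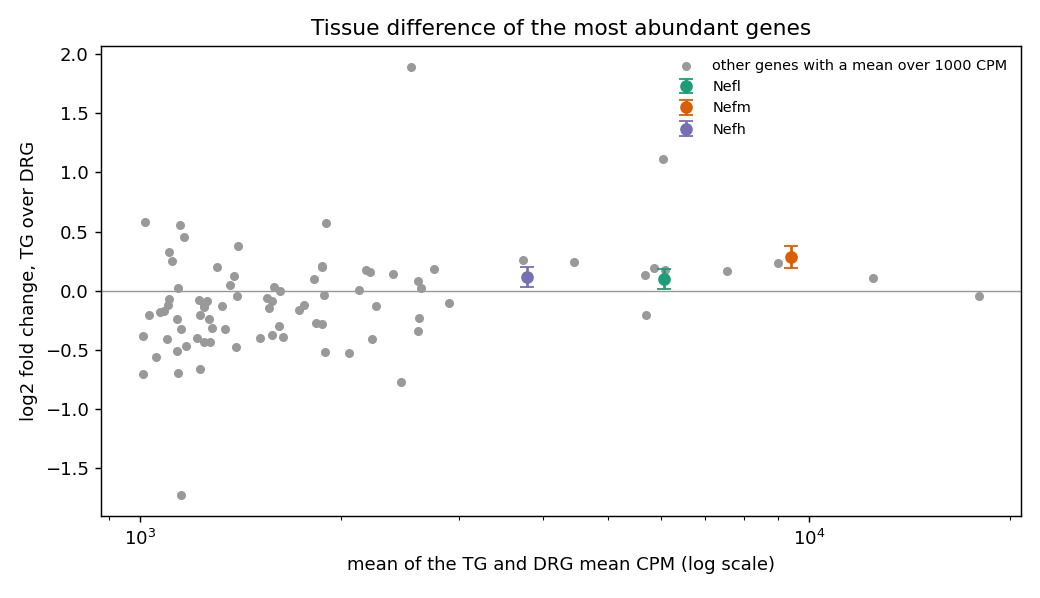
Log2 fold change of TG over DRG (vertical axis) against mean CPM (horizontal axis, log scale) for the 88 genes with a mean over 1000 CPM, with 95% intervals for the neurofilament genes in colour. Nefm is at 0.29, Nefh at 0.11 and Nefl at 0.099, and 12 of the 14 genes over 3000 CPM lie above 0.

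Ratios among subunits within a library do not depend on library size and so set the change of one subunit against another. The balance of transcripts was shifted toward Nefm in TG, both against Nefl and against Nefh, while the ratio of Nefh to Nefl showed no such shift. As the ratios are of read counts, their absolute values also reflect transcript length and are no molar ratios. Their difference between tissues does not depend on length unless the transcript forms in use differ, which was not tested. Such shifts in balance were common among abundant genes. Of the 3828 ratios between 2 genes over 1000 CPM, the neurofilament ratios included, 62.2% separated the tissues without overlap, and the median absolute log2 difference between tissues was 0.32.

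The Nefm to Nefl ratio compares the medium chain with the core subunit. It was 1.60 in the lowest TG library, 1.64 at the median and 1.73 in the highest, and 1.38, 1.45 and 1.51 in DRG. Every TG library lay above every DRG library, and the ratio was higher in TG in 6 of 6 rats. The means were 1.65 ± 0.045 in TG and 1.45 ± 0.059 in DRG (SD, n = 6). The difference was 0.19 ± 0.029 on the log2 scale (SE, 95% interval 0.12 to 0.25), a ratio 1.14 times as high in TG. The exact two-sided permutation test over 924 divisions of the libraries gave p = 0.0022, the smallest that 6 against 6 can give. Its adjusted p was 0.0032 over 3 ratios. Those divisions ignore the pairing of libraries by rat. Exact sign flips within rats, which keep the pairing, gave an adjusted p = 0.047 over 3 ratios. The unadjusted p of the flips was likewise the smallest that 6 rats can give.

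The Nefh to Nefm ratio compares the 2 subunits with long tails. It was 0.365 in the lowest TG library, 0.387 at the median and 0.391 in the highest, and 0.418, 0.427 and 0.449 in DRG. Every TG library lay below every DRG library, and within rats the log2 difference ran from -0.22 to -0.11. The means were 0.381 ± 0.011 in TG and 0.430 ± 0.012 in DRG (SD, n = 6). The difference was -0.17 ± 0.023 on the log2 scale (SE, 95% interval -0.23 to -0.12). The exact two-sided permutation test gave p = 0.0022, with adjusted p = 0.0032 over 3 ratios. Exact sign flips within rats gave an adjusted p = 0.047 over 3 ratios, again from the smallest unadjusted p possible. The Nefh to Nefm and Nefm to Nefl ratios share Nefm, and the adjusted p of each depends on both.

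The Nefh to Nefl ratio did not differ beyond the spread between libraries. It was 0.600 in the lowest TG library, 0.633 at the median and 0.645 in the highest, and 0.581, 0.622 and 0.659 in DRG. The TG values lay wholly within the range of the DRG values. The means were 0.628 ± 0.016 in TG and 0.622 ± 0.028 in DRG (SD, n = 6), and the ratio was higher in TG in 3 of 6 rats. The log2 difference of 0.015 ± 0.031 (SE) did not pass (exact two-sided permutation p = 0.65, adjusted p = 0.65 over 3 ratios). Its 95% interval, -0.053 to 0.086, holds a ratio in TG of 0.964 to 1.06 times that in DRG.

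As shares of the counts of the 3 genes, Nefm made up 50.3% ± 0.61 in TG and 47.1% ± 0.71 in DRG (SD, n = 6). Nefl made up 30.5% ± 0.50 in TG and 32.6% ± 0.90 in DRG. Nefh made up 19.2% ± 0.36 in TG and 20.3% ± 0.49 in DRG. The lower shares of Nefl and Nefh in TG go with the higher share of Nefm and are not a fall in their own level, since shares sum to a fixed total. The Nefm share ran from 49.7% to 51.3% in TG and from 46.2% to 48.1% in DRG. The differences of the Nefm to Nefl and Nefh to Nefm ratios were larger than those of 30.3% and 28.2% of the 3828 ratios among genes over 1000 CPM, and that of the Nefh to Nefl ratio was larger than 2.25% of them.

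**Figure D3:**
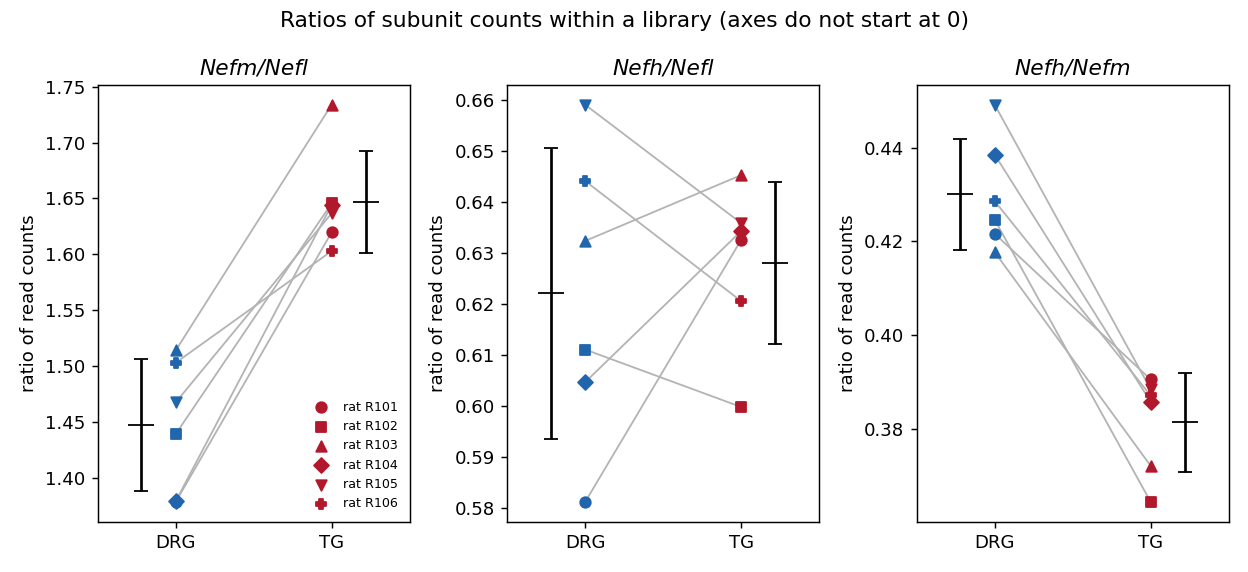
Ratios of read counts of 2 subunits in the DRG and TG library of each of 6 rats, joined by a grey line, with the mean and SD of each tissue in black; the vertical axes do not start at 0. The Nefm to Nefl ratio is higher in TG in every rat, the Nefh to Nefm ratio is lower in every rat, and the Nefh to Nefl ratio moves up in 3 rats and down in 3.

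The spread between libraries of a tissue, each from a different rat, was larger than counting error for each of the 3 genes. The lowest count of a neurofilament gene was 45990 (Nefh) and the highest 161976 (Nefm), for which counting alone gives an error of 0.47% and 0.25%. The SD between libraries was 4.81% (Nefl), 5.98% (Nefm) and 5.95% (Nefh) of the mean in TG, and 5.73%, 5.59% and 4.26% in DRG. On the log2 scale the SD of the Nefm to Nefl ratio was 0.039 in TG and 0.059 in DRG, against at most 0.0070 from counting. Counting intervals cover counting error only.

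Between libraries of a tissue the subunits tended to be high or low together, although no relation passed after adjustment over the 9 computed. In TG, log2 CPM of Nefl and Nefm had a Pearson correlation of 0.89 over 6 libraries (Spearman 0.89; exact permutation p = 0.026 and 0.033, adjusted 0.059 and 0.23), and 0.92 without the 2 libraries farthest from the median. Nefl and Nefh in TG had 0.91 (Spearman 0.77; exact permutation p = 0.022 and 0.10, adjusted 0.059 and 0.23), and 0.96 without the 2 farthest libraries. Nefm and Nefh in TG had 0.89 (Spearman 0.77; exact permutation p = 0.017 and 0.10, adjusted 0.059 and 0.23), and 0.86 without them.

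In DRG the correlation of Nefm with Nefh was 0.88 (Spearman 0.77; exact permutation p = 0.026 and 0.10, adjusted 0.059 and 0.23), and 0.70 without the 2 farthest libraries. That of Nefl with Nefm was 0.74 (Spearman 0.66; exact permutation p = 0.082 and 0.17, adjusted 0.15 and 0.32), and 0.83 without them. That of Nefl with Nefh was 0.62 (Spearman 0.43; exact permutation p = 0.18 and 0.42, adjusted 0.28 and 0.47), and 0.48 without them. All 6 correlations between subunits were positive, and library size, which the 3 genes of a library share, enters each. The 2 libraries left out were those farthest from the median of the gene named first, in TG as in DRG.

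The relation between a rat's TG level and its DRG level did not pass for any of the 3 genes. The correlation between the ganglia was -0.35 for Nefl (Spearman -0.31; exact permutation p = 0.49 and 0.56, adjusted 0.49 and 0.56), and -0.40 without the 2 farthest rats. It was 0.36 for Nefh (Spearman 0.49; exact permutation p = 0.46 and 0.36, adjusted 0.49 and 0.46), and 0.40 without them. For Nefm it was 0.58 (Spearman 0.49; exact permutation p = 0.23 and 0.36, adjusted 0.29 and 0.46), but -0.91 without the 2 farthest rats, so that value rests on those animals. The rats left out were, for each gene, the 2 farthest from its median in TG. Rat R103 had the highest Nefm in both tissues, with 11327 CPM for TG and 9227 CPM for DRG, and R104 the lowest in both, at 9573 CPM and 7967 CPM. Rat R106 had the highest Nefl in TG, 6591 CPM, and the lowest in DRG, 5330 CPM.

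The genes whose pattern was most like the mean of the subunits were sought by the correlation of log2 CPM over the 12 libraries, after the mean of each tissue was subtracted. Of the 14551 other genes, 2 had a correlation over 0.9, 51 over 0.8 and 37 under -0.8. How many of so many genes would pass these limits by chance was not tested. ENSRNOG00000022586 had the highest, 0.94, with a mean level of 61.2 ± 2.22 CPM for TG and 67.7 ± 1.35 CPM for DRG (SD, n = 6). ENSRNOG00000016367 had 0.91, with 78.4 ± 4.49 CPM for TG and 66.6 ± 3.11 CPM for DRG. The most opposed was ENSRNOG00000010389, with -0.93, 491 ± 46.4 CPM in TG and 423 ± 40.2 CPM in DRG. Next was ENSRNOG00000053086, with -0.91, 272 ± 26.2 CPM in TG and 268 ± 22.4 CPM in DRG. Likeness by this measure leaves out the tissue difference. The log2 fold change of TG over DRG was -0.15 and 0.23 for the 2 most alike, and 0.22 and 0.021 for the 2 most opposed. The symbols of these 4 identifiers were not given in the sources used here.

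By the same measure Nefm and Nefh were close to each other. Their correlation was 0.88, and each was 8th among 14553 genes in likeness to the other. Nefl was less close, with 0.81 to Nefm (52nd among the genes most like Nefm) and 0.75 to Nefh (114th among those most like Nefh). Libraries share their scaling and composition, and these correlations describe these 12 libraries only.

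Nefl and Nefm are neighbours on rat chromosome 15 in the RefSeq annotation of assembly GRCr8, with 1 pseudogene (Slc25a3-ps1) between them, whereas Nefh is on chromosome 14. In that annotation 1 protein-coding gene (LOC134482139) overlaps Nefm and none (0) overlaps Nefl or Nefh. The counts were made on another build, Rnor_6.0. Reads overlapping more than 1 gene were 1.39% to 1.46% of the reads in TG files and 1.42% to 1.49% in DRG files, and are not in the counts of any gene. Whether reads of Nefm were among them was not tested.

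**Figure D4:**
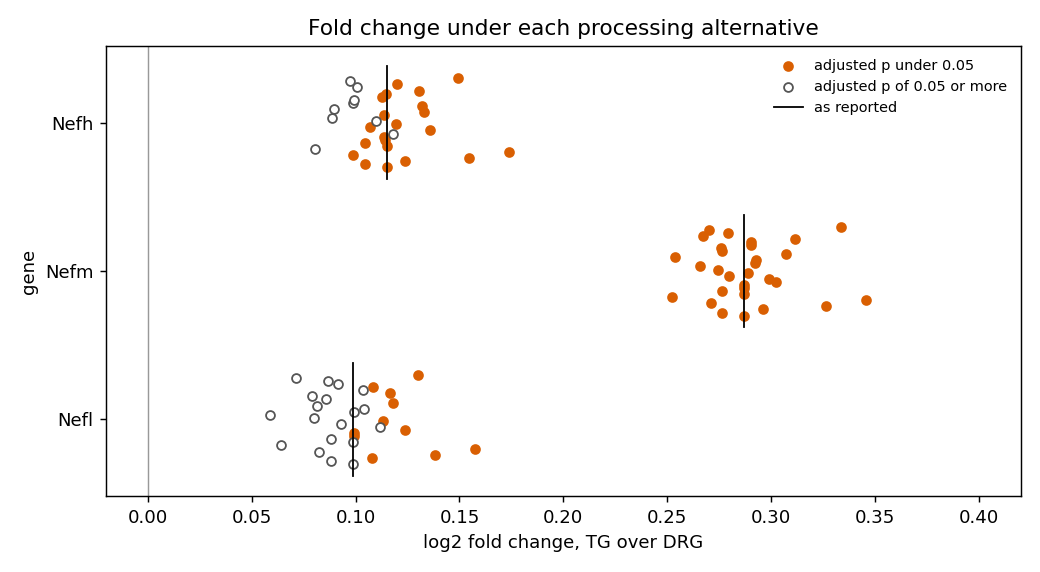
Log2 fold change of TG over DRG (horizontal axis) for Nefl, Nefm and Nefh under each processing alternative, as filled points where the adjusted p was under 0.05 and open points elsewhere, with the reported value as a black line. All Nefm points are filled and lie between 0.25 and 0.35, while Nefl and Nefh have points of both kinds, all above 0.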

How the data were processed

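For each library the authors deposited a table of raw read counts. STAR, HTSeq and build Rnor_6.0 were used, per the submitters' processing notes; not given in the sources used here are versions, annotation release and strandedness. The 5 last rows (reads given to no gene) were left out of library sizes. The analysis of counts used edgeR 4.0.16 in R 4.3.3: filterByExpr by tissue (14554 genes, 99.9% of counts), TMM factors, and the robust quasi-likelihood test across all genes with tissue as the only term and Benjamini-Hochberg adjustment, called under 0.05. The SE was computed as the absolute log2 fold change over the root of F. Log2 CPM used a prior count of 2. Intervals of ratio differences hold the shifts that the exact permutation test did not reject. limma 3.58.1 and DESeq2 1.42.0 served as alternatives. The fit was checked on simulated counts, with the same dispersion for all genes and no effect of rat. The permutation test of a difference and the sign flips were checked on fixed values with a known p.

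Both libraries of a number came from 1 rat. Their deviations from tissue means correlated at 0.23 to 0.34 across genes, against -0.14 to 0.10 for different rats. The members, lists and alternatives were chosen with earlier results of these data known. Symbols of the members came with the definition of the set. None (0) of the identifiers matched the RefSeq table by Ensembl identifier, so the 4 other gene lists were not analysed here. Named besides the members were the 2 identifiers most and the 2 least like them. The ratios among all genes over 1000 CPM were added after seeing the data.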

Additional observations from a re-analysis of the deposited data

Results flagged for a closer look

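The Nefm to Nefl ratio of the TG library of rat R103 was 1.73, apart from the other 5 TG libraries at 1.60 to 1.65. Its gap to the nearest library was 0.674 of the whole range, above Dixon's 95% critical value for 6 samples. It was 1 of 12 sets of 6 libraries examined (3 genes and 3 ratios in 2 tissues), and chance flags about 1 set in 20. The DRG library of the same rat also had the highest ratio of its tissue, 1.51, without standing apart. Without the TG library of R103 the log2 difference of this ratio between the tissues was 0.17, and it still passed (exact permutation test, adjusted p = 0.0032 over 3 ratios).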

How the results depend on the processing

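Directions of the 3 log2 fold changes held in all 29 alternatives each. Nefm passed in all 29 (0.25 to 0.35, largest adjusted p 4.7e-04 in edgeR), Nefh in 20 (0.080 to 0.17) and Nefl, which had not passed, in 11 (0.059 to 0.16). Nefl passed with upper-quartile factors (0.11), total counts without factors (0.14), the 10 most abundant genes left out of library size (0.16), limma-voom (0.099), the rat as replicate block (0.099) and without the DRG library of R103 and the TG library of R104 (0.13). It also passed without rat R101 (0.12) or R104 (0.11), and without the TG library of R104 (0.12) or the DRG library of R101 (0.12) or R103 (0.11); over all omissions of a rat or library it was 0.059 to 0.12. Nefh did not pass with library size from all reads (0.080), without rat R101 (0.12), R105 (0.11) or R106 (0.089), or without the TG library of R103 (0.090), R105 (0.099) or R106 (0.099) or the DRG library of R104 (0.10) or R106 (0.097); over all such omissions it was 0.089 to 0.14. Library size from all reads was run without TMM factors. This setting, and leaving the 3 genes out of library size and factors, were chosen after seeing the data. With the replicate block Nefm was at 0.29 and Nefh at 0.11, and no other call changed. The log2 Nefm/Nefl difference (0.17 to 0.21) and the Nefh/Nefm difference (-0.19 to -0.16) passed in all 20 tested alternatives each, with adjusted p = 0.047 over 3 ratios for both in exact sign flips within rats. The Nefh/Nefl difference turned negative without rat R101 (-0.0068) or its DRG library (-0.0047), and was -0.0068 to 0.032 over all omissions, never passing. The number of changed genes was 7702 to 8881. The highest number came without the filter on low counts, where 23184 genes were tested. In the main fit it was 8341 of 14554. The cause of these changes was not tested.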
